A study of Mus musculus with 16 samples.

Results

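Immediate early genes are genes that a cell transcribes within minutes of a stimulus, before any new protein has been made. The 10 followed here were chosen by symbol out of 28,683 genes listed in the series: *Fos*, *Fosb*, *Jun* and *Junb*, which encode subunits of the transcription factor AP-1, the zinc finger factor *Egr1*, the nuclear receptor *Nr4a1*, the cytoskeleton-associated synaptic protein gene *Arc*, *Ier2*, the phosphatase gene *Dusp1* and the antiproliferative gene *Btg2*. Each was listed in all 16 libraries. Their levels were followed across cell types, libraries and treatment groups.

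The series is single-cell RNA sequencing by Drop-seq of the hypothalamus and preoptic area, cut as 1 block, from female mice on a mixed CD-1;129P2 background, with 1 library per mouse. The question was how tamoxifen, a ligand of estrogen receptors, acts on the cells of this region with and without *Esr1*, the gene of estrogen receptor alpha. All mice came from crosses of a floxed *Esr1* allele with an *Nkx2-1* Cre driver transgene, and Cre-negative littermates were the wild-type (WT) controls. Mice were 8 to 10 weeks old when injections began. They received a daily subcutaneous injection for 4 weeks, either tamoxifen at 0.1 mg/kg or oil vehicle, and were killed 2 h after the last injection. The study's methods state that 4 mice were prepared on each of 4 days with the groups side by side, but the labels do not tie a library to a day. The groups were WT oil (n = 3 mice), WT tamoxifen (n = 5), *Esr1* conditional knockout (cKO) oil (n = 4) and *Esr1* cKO tamoxifen (n = 4). Cre acts only in cells whose lineage expressed *Nkx2-1*, so cells outside it keep the allele in the knockout as well. All tissue was digested with papain for 30 min at 30 °C, so no comparison here sets digested against undigested tissue.

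In a resting cell these genes are held ready by factors that are already present, such as CREB, which binds the cAMP response element (CRE), and the serum response factor. Calcium, cAMP or growth factor signals activate kinases that phosphorylate those factors, and transcription starts at once and soon stops. In the brain *Fos*, *Egr1* and *Arc* are used as marks of recently active neurons, yet glial and vascular cells transcribe most of the same genes when stimulated. Several members also close the loop: *Dusp1* removes phosphates from MAP kinases, and AP-1 proteins act on the genes of the family.

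The promoters show what the members share in sequence and what they do not. RefSeq sequence of GRCm38.p6, the genome build that matches the mm10 named for the files, was read for 7 of the 10 members as the 250 bases before the transcription start, and 5 of these are printed because they hold the full CRE, several copies of its core, or none. Capitals mark the CRE core (TGACG, or CGTCA on the other strand) and the full CRE (TGACGTCA), which contains the core on each strand. The windows lie at chr12:85473640-85473889 (*Fos*, plus strand), chr4:95052223-95052472 (*Jun*, minus strand), chr15:101266596-101266845 (*Nr4a1*, plus strand), chr17:26508473-26508722 (*Dusp1*, minus strand) and chr1:134079156-134079405 (*Btg2*, minus strand), each read 5′ to 3′ towards its gene.
Fos: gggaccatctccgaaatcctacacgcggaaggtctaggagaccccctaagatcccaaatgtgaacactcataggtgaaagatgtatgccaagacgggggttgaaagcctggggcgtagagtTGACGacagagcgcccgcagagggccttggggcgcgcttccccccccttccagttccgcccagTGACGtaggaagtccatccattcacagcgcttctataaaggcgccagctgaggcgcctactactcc
Jun: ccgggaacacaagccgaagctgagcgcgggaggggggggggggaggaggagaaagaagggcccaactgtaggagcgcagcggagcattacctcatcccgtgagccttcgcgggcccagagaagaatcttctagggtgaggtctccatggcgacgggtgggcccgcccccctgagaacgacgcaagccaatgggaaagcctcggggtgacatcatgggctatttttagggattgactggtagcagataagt
Nr4a1: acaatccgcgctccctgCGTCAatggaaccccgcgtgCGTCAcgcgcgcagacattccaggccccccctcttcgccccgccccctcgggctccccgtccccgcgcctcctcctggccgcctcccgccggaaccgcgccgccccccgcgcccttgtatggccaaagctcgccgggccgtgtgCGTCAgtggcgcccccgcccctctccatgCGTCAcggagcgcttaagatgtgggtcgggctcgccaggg
Dusp1: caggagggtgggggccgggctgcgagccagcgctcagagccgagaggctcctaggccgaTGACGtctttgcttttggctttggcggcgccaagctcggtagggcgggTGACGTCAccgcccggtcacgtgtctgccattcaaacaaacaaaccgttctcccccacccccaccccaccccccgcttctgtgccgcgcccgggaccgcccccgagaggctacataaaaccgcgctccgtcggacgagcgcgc
Btg2: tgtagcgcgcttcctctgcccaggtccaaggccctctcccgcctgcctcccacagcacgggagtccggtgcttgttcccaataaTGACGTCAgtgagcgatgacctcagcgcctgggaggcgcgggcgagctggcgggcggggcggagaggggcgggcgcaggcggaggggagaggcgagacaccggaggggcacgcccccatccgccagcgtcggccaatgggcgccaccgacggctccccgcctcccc

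Searched on both strands, the CRE core was present in 6 of 7 member promoters (*Jun* lacked it) against 17.8% of 32,851 RefSeq promoters of the same length. *Nr4a1* held 4 copies. The *Fos* window held 2, of which the nearer lay 66 to 62 bases before the start, upstream of a TATA box (TATAAA) at 33 to 28. The full CRE was found in *Dusp1*, 143 to 136 bases before the start, and in *Btg2*, 166 to 159 before it, against 1.55% of all promoters. An AP-1 motif (TGANTCA) and the CArG box, the binding sequence of the serum response factor, were in 0 of 7 windows, and in 6.75% and 1.47% of all promoters. The CCAAT box was in 3 of 7 (*Jun*, *Junb* and *Btg2*) against 33.8%. These are exact matches of letters in a short window and were not read as bound sites. Variant sequences and sites farther from the start were not searched, so a motif not found is not shown to be absent.

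The files listed 146,538 barcodes. Library totals ran from 2,634,253 to 8,038,158 unique molecular identifiers (UMIs, which count captured transcripts once each). After filtering, 55,675 cells remained, 1746 to 5568 per library, with a median of 563 to 819 UMIs per cell. Libraries S10 (WT oil) and S11 (*Esr1* cKO tamoxifen) stood apart because they listed only barcodes with at least 100 genes, where the others started at 20. Libraries S13 to S16 shared 295 kept barcodes among all 4, which made up part of the 7.45 to 11.1% of their cells whose barcode also occurred elsewhere, against 0.228 to 1.72% in the other libraries. The expression of cells with the same barcode in these 4 libraries was correlated with a median r of 0.587 to 0.637, against 0.159 to 0.169 for other cells, so such cells may not be independent. Results were therefore repeated without S10 and S11 and without the 1717 cells concerned. Counts of *Esr1* itself in neurons ran from 44.1 to 86.5 per 1,000,000 UMIs (CPM, the level used throughout) in WT oil, 57.5 to 74.4 in WT tamoxifen, 41.4 to 59.0 in cKO oil and 17.1 to 73.7 in cKO tamoxifen, and no contrast was called by edgeR (unadjusted p from 0.208 to 0.942). Drop-seq counts the 3′ end of a transcript, and where the floxed part lies is not given in the sources used here, so these counts do not check the deletion.

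Cells were clustered with the 10 members and 41 further immediate early genes left out, so that their own levels did not enter the clustering. Genes of similar pattern outside these lists were not left out. The resulting 9 types were named from markers: 13,559 astrocyte-like cells, 9220 oligodendrocyte-like, 9153 neuron-like, 7192 endothelial-like, 5388 microglia-like, 4449 polydendrocyte-like (the precursors of oligodendrocytes), 3182 ependymal-like, 2361 mural-like (pericytes and smooth muscle) and 1171 fibroblast-like cells. Each type expressed at least 9 of its own 10 or 11 markers. The endothelial-like cells also expressed 8 of 10 mural markers, and the fibroblast-like cells included a cluster led by *Ttr*, a choroid plexus gene, *Bpifa1* and *Tshb*, a pituitary gene. The microglia-like cells also expressed all 6 markers of perivascular macrophages. With the immediate early genes kept in the clustering, 82.2% of fibroblast-like cells and at least 99.4% of each other type kept their type.

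The 10 genes together were a larger part of the transcripts in 6 of the 8 non-neuronal types than in neurons. They made up 1.80 ± 0.246% of UMIs in microglia (mean ± SD over 16 libraries, here and below), 1.75 ± 0.589% in fibroblast-like, 1.36 ± 0.211% in mural, 1.33 ± 0.209% in endothelial, 1.01 ± 0.137% in polydendrocyte and 0.880 ± 0.273% in ependymal cells. Neurons had 0.153 ± 0.0355%, oligodendrocytes 0.127 ± 0.0595% and astrocytes 0.0686 ± 0.0359%. The fibroblast-like value of library S2 (*Esr1* cKO tamoxifen), 3.53%, was the highest of any library and type. Thus 6 cell types stood high and 3 low, and polydendrocytes stood with the first set while their descendants, the oligodendrocytes, stood with the second.

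**Figure D1:**
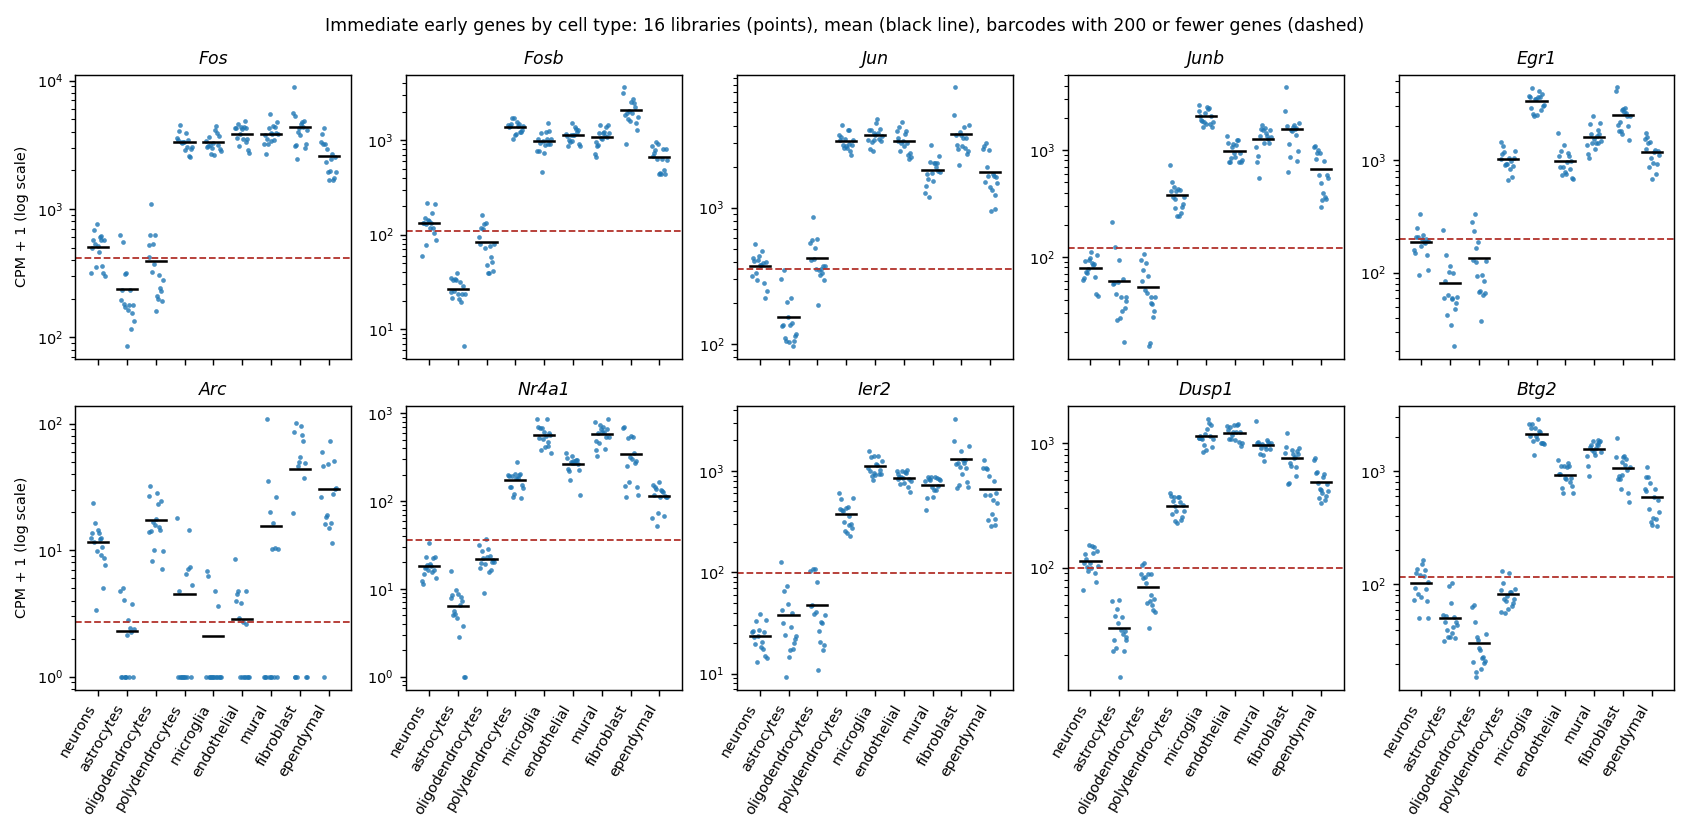
Level of each immediate early gene in the 9 cell types, as CPM plus 1 on a log axis, with 1 point per library (n = 16), a black line at the mean and a dashed line at the mean level in barcodes with 200 or fewer genes. For every gene except Arc the neurons, astrocytes and oligodendrocytes lie near or below the dashed line, and the other types lie above it, apart from Btg2 in polydendrocytes.

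*Fos*, the subunit most used as a mark of activity, illustrates the order. Its level in neurons was 501 ± 138 CPM (lowest 301, median 521, highest 757). In endothelial cells it was 3844 ± 627 CPM (lowest 2744, median 3998, highest 4801). The 2 ranges did not overlap, and *Fos* was lower in neurons than in the other cells of the same library in 16 of 16 libraries (log2 fold change −2.19 ± 0.08 SE, edgeR adjusted p = 1.17e-19). The highest means were those of fibroblast-like (4334 ± 1494 CPM), mural (3867 ± 675) and endothelial cells, and neighbours in that order did not differ beyond their spread over libraries (exact sign-flip permutation test, two-sided, adjusted p = 0.478 and 0.930). Endothelial cells exceeded polydendrocytes (3330 ± 517 CPM, exact permutation adjusted p = 0.00843), which did not differ detectably from microglia (3296 ± 516 CPM, adjusted p = 0.854 by the same exact test). Microglia exceeded ependymal cells (2607 ± 789 CPM, exact permutation adjusted p = 0.0113). Between ependymal cells and neurons came the large step, 2.35 on the log2 scale and present in 16 of 16 libraries (exact permutation adjusted p = 0.000174, from p = 3.05e-05, the smallest that 16 pairs can give). Neurons and oligodendrocytes (395 ± 241 CPM) did not pass the test (exact permutation adjusted p = 0.0509), and astrocytes were lowest at 239 ± 150 CPM. The p-values were adjusted over all 80 neighbouring pairs of the 10 genes, of which 52 differed, and 44 did without S10 and S11.

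The other AP-1 genes kept the gap between the sets but not the order inside the high set. *Jun*, the partner that *Fos* needs to bind DNA, was at 3474 ± 1298 CPM in fibroblast-like cells, 3406 ± 485 in microglia, 3106 ± 446 in polydendrocytes and 3088 ± 588 in endothelial cells, but at 1888 ± 429 in mural cells, below endothelial cells in 16 of 16 libraries (exact permutation adjusted p = 0.000174). Ependymal cells, at 1813 ± 647, did not differ detectably from mural cells (exact permutation adjusted p = 0.586). The low types were oligodendrocytes at 428 ± 158, neurons at 370 ± 85.4 and astrocytes at 158 ± 74.5 CPM, of which the first pair did not differ detectably (exact permutation adjusted p = 0.302). *Fosb*, whose product replaces Fos in the dimer, was highest in fibroblast-like cells (2073 ± 695 CPM), followed by polydendrocytes (1375 ± 192), and the first exceeded the second in 15 of 16 libraries (exact permutation adjusted p = 0.00312). Endothelial (1120 ± 189 CPM), mural (1084 ± 232) and microglial cells (976 ± 244) followed with no detectable step between neighbours (exact permutation adjusted p = 0.585 and 0.280), then ependymal cells at 667 ± 178. Neurons (132 ± 42.4 CPM), oligodendrocytes (82.3 ± 38.1) and astrocytes (25.5 ± 7.93) each differed from their neighbour for *Fosb*. *Junb*, an AP-1 subunit that is a weaker activator than Jun, was at 2059 ± 329 CPM in microglia (1644 to 2616) and at 378 ± 122 in polydendrocytes (239 to 728), so those ranges did not overlap. Between them stood fibroblast-like (1562 ± 747 CPM), mural (1265 ± 320), endothelial (987 ± 198) and ependymal cells (661 ± 284), and *Junb* was at 77.3 ± 19.6 in neurons, 59.4 ± 48.3 in astrocytes and 51.2 ± 27.5 in oligodendrocytes. In the order of means, polydendrocytes were thus the second for *Fosb*, the third for *Jun* and the sixth for *Junb*.

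*Egr1* and *Nr4a1* differed from *Fos* in which type was highest. *Egr1* was at 3314 ± 576 CPM in microglia (lowest 2465, median 3475, highest 4332), at 2501 ± 799 in fibroblast-like and at 1594 ± 372 in mural cells. Ependymal (1175 ± 307 CPM), polydendrocyte (1008 ± 210) and endothelial cells (983 ± 280) followed, the last pair without a detectable difference (exact permutation adjusted p = 0.639). In neurons *Egr1* was at 186 ± 54.6 CPM (95.05 to 328), in oligodendrocytes at 134 ± 85.1 and in astrocytes at 79.4 ± 52.6. Microglia exceeded fibroblast-like cells in 13 of 16 libraries (exact permutation adjusted p = 0.00268). *Nr4a1*, which encodes a nuclear receptor that works without a known hormone, was highest in mural cells (581 ± 151 CPM) and microglia (572 ± 154), which did not differ detectably (exact permutation adjusted p = 0.873). It was at 341 ± 197 CPM in fibroblast-like, 261 ± 58.2 in endothelial, 171 ± 43.8 in polydendrocyte and 112 ± 32.9 in ependymal cells. The fibroblast-like value joins clusters of unlike *Nr4a1* level, described below. Oligodendrocytes (21.0 ± 6.73 CPM) and neurons (17.3 ± 5.36) did not differ detectably (exact permutation adjusted p = 0.179), and astrocytes were at 5.37 ± 3.70. *Nr4a1* was the member that set mural cells apart most from the other cells (log2 fold change 2.23 ± 0.12, edgeR adjusted p = 6.78e-71, higher in 16 of 16 libraries).

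The feedback genes *Dusp1* and *Btg2* were high in vascular and immune cells and lower in polydendrocytes, where *Ier2* did not pass the test against the other cells. *Dusp1* was at 1194 ± 156 CPM in endothelial cells (935 to 1408), 1136 ± 202 in microglia (837 to 1568) and 310 ± 55.6 in polydendrocytes (229 to 392), so the last range lay below the other ones. Mural cells were at 968 ± 169 CPM, fibroblast-like cells at 762 ± 187 and ependymal cells at 483 ± 128 for *Dusp1*, and neurons (112 ± 25.3), oligodendrocytes (68.7 ± 23.3) and astrocytes (31.6 ± 11.8) were below all of these on average. *Btg2*, which slows the cell cycle, was at 2115 ± 407 CPM in microglia, 1567 ± 274 in mural, 1072 ± 356 in fibroblast-like, 929 ± 197 in endothelial and 597 ± 233 in ependymal cells. It was at 81.4 ± 22.4 CPM in polydendrocytes, 50.0 ± 21.2 in astrocytes and 29.6 ± 15.6 in oligodendrocytes. The *Btg2* level of polydendrocytes was below that of neurons (102 ± 34.7 CPM) in 12 of 16 libraries (exact permutation adjusted p = 0.0402), while *Fos* was at 3330 ± 517 CPM in polydendrocytes and 501 ± 138 in neurons. *Ier2*, a small nuclear protein gene, was at 1298 ± 651 CPM in fibroblast-like cells, 1118 ± 226 in microglia, 858 ± 117 in endothelial, 732 ± 141 in mural, 655 ± 323 in ependymal and 377 ± 114 in polydendrocyte cells. It was at 47.0 ± 33.1 CPM in oligodendrocytes, 36.6 ± 29.4 in astrocytes and 22.4 ± 7.38 in neurons (11.9 to 37.7), and these neighbours did not differ detectably (exact permutation adjusted p = 0.200 and 0.132). *Ier2* was the member furthest below the other cells in neurons (log2 fold change −4.47 ± 0.10, edgeR adjusted p = 2.1e-24, 0 of 16 libraries higher).

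*Arc* behaved unlike the rest and was barely captured, with 613 UMIs in all kept cells. Its mean was 42.7 ± 36.5 CPM in fibroblast-like cells (62 UMIs), 29.7 ± 19.7 in ependymal cells (154 UMIs), 16.4 ± 7.57 in oligodendrocytes (138 UMIs) and 10.5 ± 4.68 in neurons (206 UMIs, 2.38 to 22.6 CPM). The mural mean of 14.4 ± 27.3 CPM rested on 13 UMIs, with 109 CPM in library S4 (*Esr1* cKO oil). Polydendrocytes, microglia, endothelial cells and astrocytes held 14, 4, 12 and 10 UMIs. In neurons *Arc* was not distinguishable from the other cells (log2 fold change 0.06 ± 0.17, edgeR adjusted p = 0.772, higher in 10 of 16 libraries). In the thinned cells described below, at most 1.63% of the cells of any type held a UMI of *Arc*.

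Tested against all other cells with the library as a block, 86 of the 90 combinations of member and cell type passed an adjusted p of 0.05. Such tests call many genes, so each count stands beside the share of all genes called in that direction. Neurons had 0 members higher (38.8% of all genes tested were) and 9 lower (41.1%), with *Arc* not called. Astrocytes had 0 higher (29.7%) and 10 lower (42.3%). Oligodendrocytes had 1 higher (28.6%), *Arc* at 1.19 ± 0.18 on the log2 scale, and 9 lower (45.2%).

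In the high set the calls ran the other way. Microglia had 9 members higher (26.8% of all genes), led by *Btg2* at 3.06 ± 0.08, *Egr1* at 2.92 ± 0.07 and *Junb* at 2.84 ± 0.07 on the log2 scale, and 1 lower (46.5%), *Arc*. Endothelial cells had 9 higher (29.5%), led by *Dusp1* at 2.31 ± 0.06, and 1 lower (45.4%), again *Arc*. Mural cells had 9 higher (12.7%) and 0 lower (39.2%). Fibroblast-like cells had 10 higher (13.3%) and 0 lower (31%), and ependymal cells had 9 higher (28%) and 0 lower (36%). The ependymal values join clusters of unlike member level, described below. Polydendrocytes were split, with 5 higher (27.9%) and 4 lower (33.3%). *Fosb* (1.59 ± 0.07), *Jun* (1.29 ± 0.05), *Fos* (1.07 ± 0.06), *Egr1* (0.48 ± 0.07) and *Nr4a1* (0.42 ± 0.09) rose there, whereas *Btg2* (−2.53 ± 0.09), *Arc* (−1.73 ± 0.37), *Dusp1* (−0.42 ± 0.07) and *Junb* (−0.39 ± 0.08) fell. *Ier2* was at 0.09 ± 0.09 in polydendrocytes and *Nr4a1* at −0.16 ± 0.12 in ependymal cells, neither past the threshold.

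The median log2 fold change of the 10 members was −2.42 in neurons, −3.27 in astrocytes and −2.35 in oligodendrocytes, against −0.02, −0.12 and −0.17 for all genes. It was 2.13 in microglia, 1.56 in endothelial, 1.5 in fibroblast-like, 1.07 in mural, 0.45 in ependymal cells and 0.26 in polydendrocytes, against −0.31, −0.20, −0.30, −0.39, −0.11 and −0.02. All 90 combinations kept their direction and their side of the threshold without S10 and S11, and again without the cells of shared barcodes. Requiring a mitochondrial share under 5% left 21,601 cells and ended the ependymal calls of *Btg2*, *Dusp1*, *Fosb*, *Jun* and *Junb*, the mural call of *Jun* and the oligodendrocyte call of *Arc* (0.56, edgeR adjusted p = 0.0721). In that setting *Arc* had too few UMIs to be tested in microglia and polydendrocytes. The fibroblast-like increase of *Arc* turned to −0.87 (edgeR adjusted p = 0.157) when the immediate early genes were kept in the clustering, where 196 cells with *Bpifa1* and *Tshb* as leading genes split off.

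Barcodes with 200 or fewer genes, taken here as a measure of RNA free in the suspension, gave a background against which the low levels could be read. Over 76,760 such barcodes *Fos* was at 411 ± 65.9 CPM, *Jun* at 354, *Egr1* at 196, *Dusp1* at 97.3 and *Nr4a1* at 34.8. The astrocyte mean was above this background for 0 of 10 members, the oligodendrocyte mean for 2 and the neuronal mean for 5, of which 1 was above in every library. The median ratio of cells to background was 0.420 in astrocytes, 0.694 in oligodendrocytes and 0.996 in neurons. It was 4.39 in polydendrocytes, 5.75 in ependymal, 8.47 in endothelial, 9.68 in mural, 11.5 in microglia and 11.7 in fibroblast-like cells. A mean level at or below the background, as for all 10 members in astrocytes, could not be told apart from background. *Fos* in astrocytes was above it in 2 of 16 libraries. Expression in a part of such cells was not tested, nor whether the low barcodes also held shallow cells.

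Several members were often seen in the same cell. To compare cell types at equal depth, each cell was thinned to 500 UMIs, which left out 18,387 shallower cells and kept 37,288. At least 3 of the 10 members were seen in 74.7% of microglia, 63.3% of fibroblast-like, 59.7% of mural, 53.4% of polydendrocyte, 51.2% of endothelial and 41.1% of ependymal cells. The same was true of 6.52% of neurons, 3.76% of oligodendrocytes and 1.59% of astrocytes. None of the 10 was seen in 61.8% of neurons and 82.4% of astrocytes, and 51.3% of microglia showed 5 or more.

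**Figure D2:**
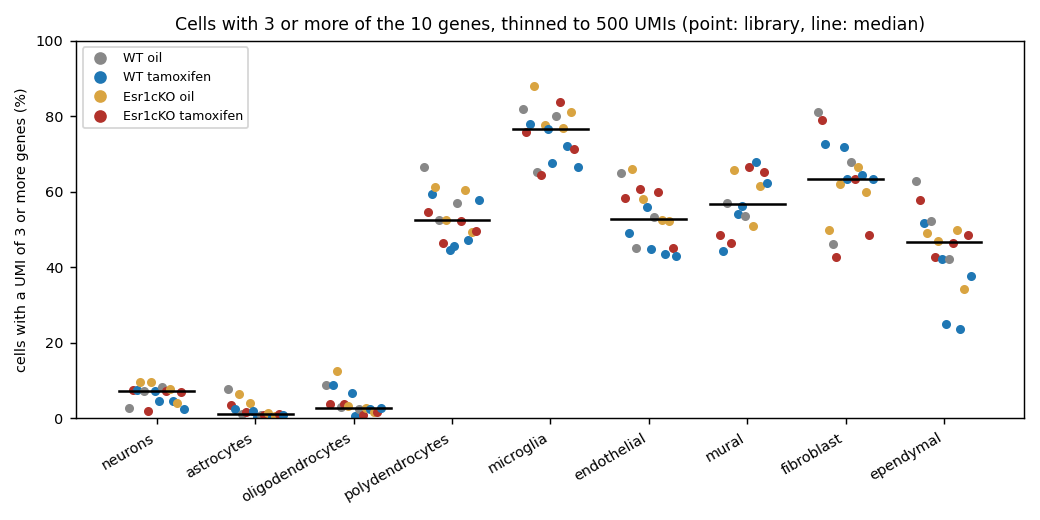
Share of cells, in percent, with a UMI of at least 3 of the 10 genes after thinning every cell to 500 UMIs, by cell type, with 1 point per library coloured by group and a line at the median. Neurons, astrocytes and oligodendrocytes stay at low shares in every library and the other 6 types lie higher, with the 4 groups mixed within each type.

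*Fos* was seen in 18.7% of thinned neurons (95% exact binomial interval 17.8 to 19.6, which covers counting error only), 10.9% of oligodendrocytes and 7.04% of astrocytes, and in 63.7% of polydendrocytes and 63.6% of microglia. Unthinned, the neuronal share was 31.4%, with a median of 1488 UMIs per neuron against 482 per astrocyte. Among thinned neurons, the 1371 with *Fos* are set beside the 5956 without it as a description, since cells of 1 mouse are not replicates. *Fosb* was in 17.7% against 3.64%, *Jun* in 29.5% against 11.2%, *Egr1* in 17.5% against 5.57% and *Dusp1* in 15.1% against 3.43%. These shares were all higher in the cells with *Fos*. Elsewhere, *Egr1* was in 75.0% of microglia with *Fos* against 38.2% without, and *Fosb* in 15.5% against 1.66% of oligodendrocytes. Without thinning, the 2873 neurons with *Fos* held 3.33 UMIs of it per cell on average and at most 29. Over all unthinned cells with *Fos* the values were 4.83 and at most 179, so this comparison is not at equal depth.

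Among neurons and astrocytes with 3 or more members, markers of most other cell types were seen in a larger share of cells than among those with none. The exceptions were astrocyte markers in neurons, and polydendrocyte and mural markers in astrocytes. In microglia, by contrast, all foreign lists but the neuronal one were seen in a smaller share. A mural marker was seen in 66.1% of the 2550 endothelial cells with 3 or more members and 49.3% of the 1037 with none. For fibroblast markers these endothelial shares were 25.9% and 19.3%. Astrocyte, oligodendrocyte and polydendrocyte markers were seen in a smaller share of the endothelial cells with 3 or more members. The 478 thinned neurons with 3 or more members held a microglial marker UMI in 4.18% of cells against 2.58% of the 4529 with none, an endothelial one in 6.49% against 5.17%, an oligodendrocyte one in 38.3% against 33.1% and an astrocyte one in 18.8% against 20.7%. In astrocytes the shares were 6.93% against 3.72% for microglial markers and 16.8% against 12.8% for endothelial markers, but 55.4% against 65.6% for polydendrocyte markers and 3.96% against 5.30% for mural markers, with 5241 astrocytes holding none of the members. Only 1.59% of thinned astrocytes held 3 or more members, so the astrocyte shares for that set, higher or lower, rest on few cells. The part of these foreign markers in the co-detection was not tested.

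Genes outside the 10 with the most similar pattern were sought over the 144 levels of 9 types in 16 libraries, which share library and depth. For *Fos* the nearest were *Jund* (r = 0.918), an AP-1 subunit, *Socs3* (0.913), an inhibitor of cytokine signalling, and *Klf6* (0.878). *Jund* was also nearest to *Jun* (0.942), and *Socs3* was nearest to *Junb*, *Egr1* and *Ier2* (0.944, 0.945 and 0.946). *Nr4a1* was closest to *Ppp1r15a* (0.920), *Dusp1* to *Klf2* (0.924) and *Btg2* to *Atf3* (0.972). Among members, *Fos* with *Fosb* gave 0.971 and *Fos* with *Jun* 0.968, while *Jun* with *Btg2* gave 0.746. *Arc* was below 20 CPM and was not compared.

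A wider list of 41 immediate early genes was counted by the same test, with the share of all genes called in that direction in brackets. Its calls were divided differently from those of the 10 members in polydendrocytes and ependymal cells. In neurons 33 of 40 tested were lower (41.1%) and 3 higher (38.8%). *Zfp36* (−5.35), which destabilises mRNA, and *Zfp36l1* (−5.49) were among the lowest on the log2 scale. In astrocytes 31 of 39 were lower (42.3%) and 5 higher (29.7%), and in oligodendrocytes 34 of 39 (45.2%) and 2 (28.6%). In microglia 32 of 39 were higher (26.8%) and 5 lower (46.5%), led by *Dusp2* (5.32), a nuclear MAP kinase phosphatase, *Nfkbiz* (4.96) and *Myc* (4.76). In endothelial cells 29 of 40 were higher (29.5%) and 10 lower (45.4%). The shear-responsive factor *Klf2* (4.15) and *Klf4* (3.54) were at the top there, and *Npas4*, a factor of depolarised neurons, was at −3.79. Mural cells had 25 of 39 higher (12.7%) and 8 lower (39.2%), and fibroblast-like cells 31 of 40 (13.3%) and 3 (31%). Ependymal cells had 13 of 40 higher (28%) and 17 lower (36%), and polydendrocytes 11 of 40 (27.9%) and 21 (33.3%). In both of these types the count of higher genes was thus near the share of all genes. The median log2 fold change of the list was −2.33 in neurons and 2.37 in microglia, against −0.02 and −0.31 over all genes, and lay between −0.46 and −0.16 in polydendrocytes and ependymal cells, where the calls were divided.

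The kinases and factors upstream of these genes, and heat shock genes as another stress-responsive list, took part in the clustering, so their type differences are given as description. Of 22 upstream genes 14 were higher in endothelial cells, led by the ternary complex factors *Elk3* (2.62) and *Elk4* (2.0), and 12 in microglia, led by the kinase gene *Rps6ka1* (3.83), *Mef2c* (3.50) and *Mef2a* (2.70). In neurons 7 were higher and 12 lower, against 38.8% and 41.1% of all genes tested. Among all genes, 29.5% were higher in endothelial cells and 26.8% in microglia. Of 12 heat shock genes 8 were higher in neurons, among them *Hsph1* (1.55), while *Hspb1* was at −5.41. In microglia 2 heat shock genes were higher and 8 lower, against 26.8% and 46.5% of all genes. The median of the heat shock list was 0.75 in neurons and −0.57 in microglia.

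Across the 16 libraries, the neuronal level of a member was compared with its level in the other cells of the same library. For *Jun*, r was 0.628 (permutation p = 0.00979, adjusted over the 10 members 0.0489) and rho was 0.7 (permutation adjusted p = 0.0351). For *Btg2*, r was 0.725 (permutation p = 0.00169, adjusted 0.0169) and rho was 0.647 (permutation adjusted p = 0.0403). The other 8 members did not pass. Without the 2 libraries farthest from the median r was 0.489 and 0.577. Centred within fours of library numbers, it was 0.394 and 0.507. Without S10 and S11 neither passed (*Jun* 0.578, permutation adjusted p = 0.153, and *Btg2* 0.678, permutation adjusted p = 0.0842). Both neuronal levels were near that of barcodes with 200 or fewer genes. *Jun* was at 370 against 354 CPM, above in 7 of 16 libraries, and *Btg2* at 102 against 115, above in 6. The part of this background in the correlations was not tested.

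Neurons were not uniform. Clustered again without the immediate early genes, they gave 22 clusters, named here by their leading gene. Over all clusters 4.64% of gene tests were called higher and 19.8% lower. A cluster of 899 neurons led by *Vip*, *Vipr2*, *Prokr2*, *Rgs16*, *Nms* and *Six6* had the most members called higher. *Vip* and *Nms* encode neuropeptides and *Vipr2* and *Prokr2* peptide receptors, all known from the circadian pacemaker region among other sites. In this cluster 7 of 10 members were higher than in the other neurons (11.4% of all genes tested were) and 0 lower. It did not have the highest mean of every member: in the *Agrp* cluster, for example, *Btg2* was at 348 ± 347 CPM over 8 libraries (log2 fold change 1.13 ± 0.28, edgeR adjusted p = 0.00221).

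In the *Vip* cluster *Fos* was at 1845 ± 765 CPM against 404 in other neurons (log2 fold change 2.07 ± 0.07, edgeR adjusted p = 9.85e-106, above in 15 of 16 libraries). By library, WT oil had 768 (S1), 2475 (S5) and 1977 CPM (S10), and WT tamoxifen had 2197 (S3), 3160 (S8), 455 (S9), 929 (S13) and 1620 (S16). In cKO oil the values were 2779 (S4), 2402 (S7), 2399 (S12) and 1217 (S14), and in cKO tamoxifen 2400 (S2), 1368 (S6), 1860 (S11) and 1519 CPM (S15). The 4 groups overlapped, and the spread within each was wide, with the lowest and the highest library both in WT tamoxifen. All of these except S9 lay well over the mean background level of 411 CPM.

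*Dusp1* rose most in this cluster, at 560 ± 223 CPM against 78.7 in other neurons (log2 fold change 2.71 ± 0.10, edgeR adjusted p = 8.77e-98, above in 16 of 16 libraries). *Fosb* (529 ± 195 against 102 CPM, log2 fold change 2.23 ± 0.10) and *Jun* (834 ± 287 against 336, 1.18 ± 0.08) followed, with *Btg2* at 1.09 ± 0.12 and *Egr1* at 0.94 ± 0.10. *Junb* was called at 0.48 ± 0.15 (edgeR adjusted p = 0.00775), and lost its call without S10 and S11 (0.35, edgeR adjusted p = 0.116). *Ier2* (0.68 ± 0.28), *Nr4a1* (0.68 ± 0.31) and *Arc* (0.63 ± 0.41) did not pass. Of the wider list, 13 of 20 tested genes were higher (11.4% of all genes were) and 4 lower, led by *Sik1* (2.87), a kinase gene induced by cAMP, *Gadd45g* (2.54) and *Nfkbiz* (2.32). Of the heat shock genes, which took part in the clustering, 0 of 9 tested were higher and 5 lower, *Hspa1a* at −1.32 among them. Over the 22 clusters together 19.8% of gene tests were called lower. The share for this cluster alone is not given here, so the lower counts of these lists have no baseline of their own.

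**Figure D3:**
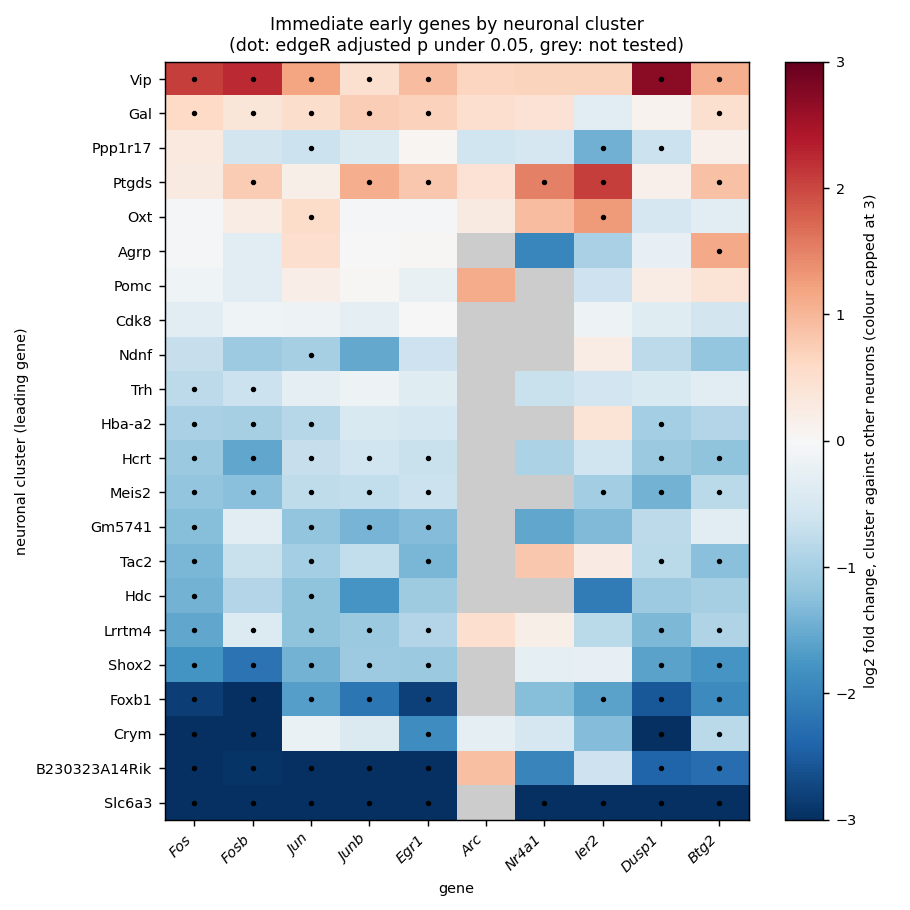
Log2 fold change of each of the 10 genes in each of the 22 neuronal clusters against the other neurons, with colour capped at 3, a dot where the edgeR adjusted p is under 0.05, and grey where a gene was not tested. The Vip-led cluster has 7 dotted red cells, and the Foxb1-led cluster has 8 dotted blue ones.

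A cluster led by *Gal*, with *Th*, *Nts* and *Ghrh* (1102 neurons), had 6 members higher (10.2% of all genes tested were). There *Fos* was at 711 ± 229 CPM against 458 in other neurons (0.60 ± 0.07), and *Junb* (0.74 ± 0.12) and *Egr1* (0.70 ± 0.08) rose with it. A cluster led by *Ptgds* (507 neurons) also had 6 higher (5.3%), led by *Ier2* (2.06 ± 0.27), but it expressed all 10 oligodendrocyte markers as well, and *Fos* was not among the 6 (0.26 ± 0.13). The part of oligodendrocyte RNA in these values was not tested.

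At the other end, a cluster led by *Foxb1* had 8 of 9 tested members lower (14.9% of all genes were). *Fos* was at 87.1 ± 37.4 CPM there against 533 in other neurons (−2.83 ± 0.18, above in 0 of 14 libraries with enough cells). *Fosb* fell by 3.86 on the log2 scale, on 8 UMIs. A cluster led by *Crym* was low for *Fos* (41.4 ± 43.0 CPM against 546, −3.94 ± 0.27) and not detectably so for *Jun* (421 ± 142 against 377, −0.20 ± 0.18), so its AP-1 genes did not move together. The *Hcrt* cluster, whose leading gene encodes the orexin peptides, had 7 of 9 tested members lower (7.18% of all genes were), with *Fos* at 255 ± 116 CPM against 535 (−1.11 ± 0.10). The *Fos* means of the *Foxb1*, *Crym* and *Hcrt* clusters lay below the mean background of 411 CPM, so they could not be told apart from it. Clusters also differed in depth, with a median of 3045 UMIs in the *Hcrt* and 485 in the *Cdk8* cluster. The part of background and depth in these differences was not tested. A cluster led by *Slc6a3* had 9 lower (66.8% of all genes were), but its 79 cells held at most 1 UMI of any of the 9. No member was called in the *Pomc* and *Cdk8* clusters. The shares of all genes called in these clusters are not given here, so this has no baseline of its own.

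Among the glial and vascular cells, a finer clustering gave pairs of clusters whose member levels differed, which are described without a test. It named the cells anew, so a pair need not lie within a single type above. The mural cells divided into an *Acta2*- and *Myh11*-led cluster (1482 cells), genes of contractile smooth muscle, and a *Vtn*- and *Kcnj8*-led one (877 cells), genes of pericytes. *Nr4a1* was at 797 CPM in the first against 55.8 in the second, 14.3 times as high and higher in 15 of 15 libraries. *Btg2* was 5.44 and *Junb* 3.50 times as high there, and *Fos* 2.09 times (4514 against 2163 CPM), while *Jun* was 1.25 times as high. The mural level of *Nr4a1* was thus mostly that of the *Acta2*-led cells. A *Gkn3*-led endothelial cluster (1666 cells) expressed all 10 mural markers as well as all 10 endothelial ones. *Fos* was at 4708 CPM in it and 3402 in the *Itm2a*-led endothelial cluster (5124 cells), higher in 15 of 16 libraries. The part of mural RNA in these values was not tested.

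Cells named ependymal in the finer clustering formed a pair of clusters, which together held more cells than the 3182 ependymal-like cells above. The first was led by *Scn7a*, *Gpr50* and *Rax* (1372 cells), of which *Rax* is known from tanycytes. The second was led by *Tmem212* and *Ccdc153* (1912 cells), genes of ciliated cells. *Fos* was at 4082 CPM in the first and 1430 in the second, higher in 16 of 16 libraries. *Ier2*, *Junb* and *Fosb* were 6.87, 6.11 and 5.07 times as high in the first, but *Arc* (15.9 against 36.3 CPM) and *Nr4a1* (91.6 against 118 CPM) were lower in it. In the *Tmem212*-led cluster, *Fos* (1430 CPM), *Jun* (871) and *Junb* (204) lay below cells outside the ependymal-like type (1548, 1300 and 444 CPM). The same held for *Fosb*, *Ier2*, *Dusp1*, *Btg2* and *Nr4a1*. *Egr1* (700 against 666 CPM) and *Arc* (36.3 against 8.44) lay above them. The higher ependymal-like levels thus need not hold for the *Tmem212*-led cells. In the microglia-like cells, *Egr1* was at 3700 CPM in a *P2ry12*-led cluster (4611 cells) and 961 in an *S100a8*-, *Lyz2*- and *Cd74*-led one (783 cells), whereas *Dusp1* was at 1112 and 1243 CPM. The *S100a8*-led cluster expressed 7 of 11 microglial markers and all 6 perivascular macrophage markers, so it may hold cells other than microglia. Early oligodendrocyte-lineage cells led by *Gpr17* and *Enpp6* (372 cells) were set beside the *Car2*-led oligodendrocytes (5466 cells). They held 2.32 times the *Fos*, 3.35 times the *Jun* and 0.490 times the *Btg2* level. The finer clustering named them oligodendrocyte, but *Gpr17* was a leading gene of the polydendrocyte-like type, which kept 91.1% of its cells. This pair may thus cross types. *Fos* was at 932 and *Egr1* at 142 CPM in the *Gpr17*-led cells, against 3330 and 1008 CPM in all polydendrocyte-like cells. Of the fibroblast-like cells, *Arc* was at 3.66 CPM in a *Dcn*-led cluster (729 cells) and 81.7 in the *Ttr*-, *Bpifa1*- and *Tshb*-led one (442 cells). The high fibroblast-like mean of *Arc* thus came from the latter. *Nr4a1* was at 171 CPM in the *Dcn*-led cluster, 0.388 times its level in the *Ttr*-led one, and higher there in 0 of 14 libraries. Its fibroblast-like mean was thus above the level of the *Dcn*-led cells. Every other member had a mean at least 1.02 times as high in the *Dcn*-led cluster.

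Neither tamoxifen nor the *Esr1* knockout gave a detectable change of any member in any cell type. In 5 contrasts, of tamoxifen against oil in each genotype, of cKO against WT under each injection, and of the interaction, 0 of 465 member tests passed by edgeR, with 5, 0, 2, 4 and 2 at an unadjusted p under 0.05 in WT tamoxifen against oil, cKO tamoxifen against oil, cKO against WT under oil, cKO against WT under tamoxifen, and the interaction. DESeq2 called 0 as well, with 8, 0, 3, 7 and 2 at an unadjusted p under 0.05. Of all genes in the 10 fits (9 cell types and all cells), 0% were called for tamoxifen in WT, 0% for tamoxifen in cKO, 0% for the interaction, 0% for cKO against WT under oil and 0.00122% for cKO against WT under tamoxifen. The contrasts share groups and are not independent. With 3 to 5 mice a group, each p-value sets a group difference against the spread between mice, estimated over all 4 groups together.

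Over all kept cells, *Fos* was at 1683, 1486 and 1775 CPM in WT oil (S1, S5 and S10) and at 1447, 1510, 1611, 1581 and 1222 in WT tamoxifen (S3, S8, S9, S13 and S16). It was at 1842, 1817, 1646 and 1409 CPM in cKO oil (S4, S7, S12 and S14) and 1605, 1788, 1801 and 1643 in cKO tamoxifen (S2, S6, S11 and S15). The means were 1648 ± 148, 1474 ± 154, 1679 ± 200 and 1709 ± 99.8 CPM, and the ranges of all groups overlapped. *Egr1* was at 918, 631 and 747 CPM in WT oil, 565, 609, 612, 687 and 599 in WT tamoxifen, 804, 907, 661 and 668 in cKO oil, and 679, 695, 698 and 743 in cKO tamoxifen, again with overlap. The groups did not overlap for *Jun* between cKO tamoxifen (1421 ± 87.0 CPM) and WT tamoxifen (1205 ± 93.6), nor for *Nr4a1* between cKO tamoxifen (148 ± 21.2) and cKO oil (114 ± 11.5), with unadjusted p of 0.0819 and 0.0997 by edgeR. Over all cells and the 9 types together, among gene and cell set combinations with a mean of at least 20 CPM, the groups did not overlap in 3 of 90 for the members and 1.41% for all genes in the first of these contrasts, and in 1 of 90 and 2.51% in the second. For cKO oil against WT oil the same counts were 2 of 90 and 5.63%. Of 93 member fold changes per contrast, 76 were below 0 for tamoxifen against oil in WT and 62 in cKO. For cKO against WT, 42 were below 0 under oil and 24 under tamoxifen, and 30 were for the interaction. None passed, and the tests share cells and mice. The share of all genes below 0 is not given here, so these counts were not read as a trait of the members.

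In neurons *Fos* was at 318, 533 and 606 CPM in WT oil, 568, 509, 465, 361 and 301 in WT tamoxifen, 678, 757, 611 and 314 in cKO oil, and 494, 352, 569 and 575 in cKO tamoxifen, with the libraries in the same order. The groups overlapped, and the log2 fold change of tamoxifen against oil was −0.17 ± 0.28 in WT and −0.24 ± 0.27 in cKO (neither called by edgeR). In microglia the same contrasts gave −0.27 ± 0.19 and −0.14 ± 0.18 for *Fos*. These fold changes were smaller than the step between cell types, such as the 2.35 log2 units between ependymal cells and neurons.

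The lowest unadjusted p of a member was that of *Dusp1* in polydendrocytes, at 261 ± 25.2 CPM in WT tamoxifen and 376 ± 14.4 in WT oil (log2 fold change −0.53 ± 0.18, unadjusted p = 0.00670, not past the threshold after edgeR adjustment). Those 2 groups did not overlap, which held for 2 of 90 member combinations and 3.4% of those of all genes in this contrast. The levels of the wider immediate early, upstream and heat shock lists also showed no call, with 0 of 264, 160 and 99 tests in each contrast.

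**Figure D4:**
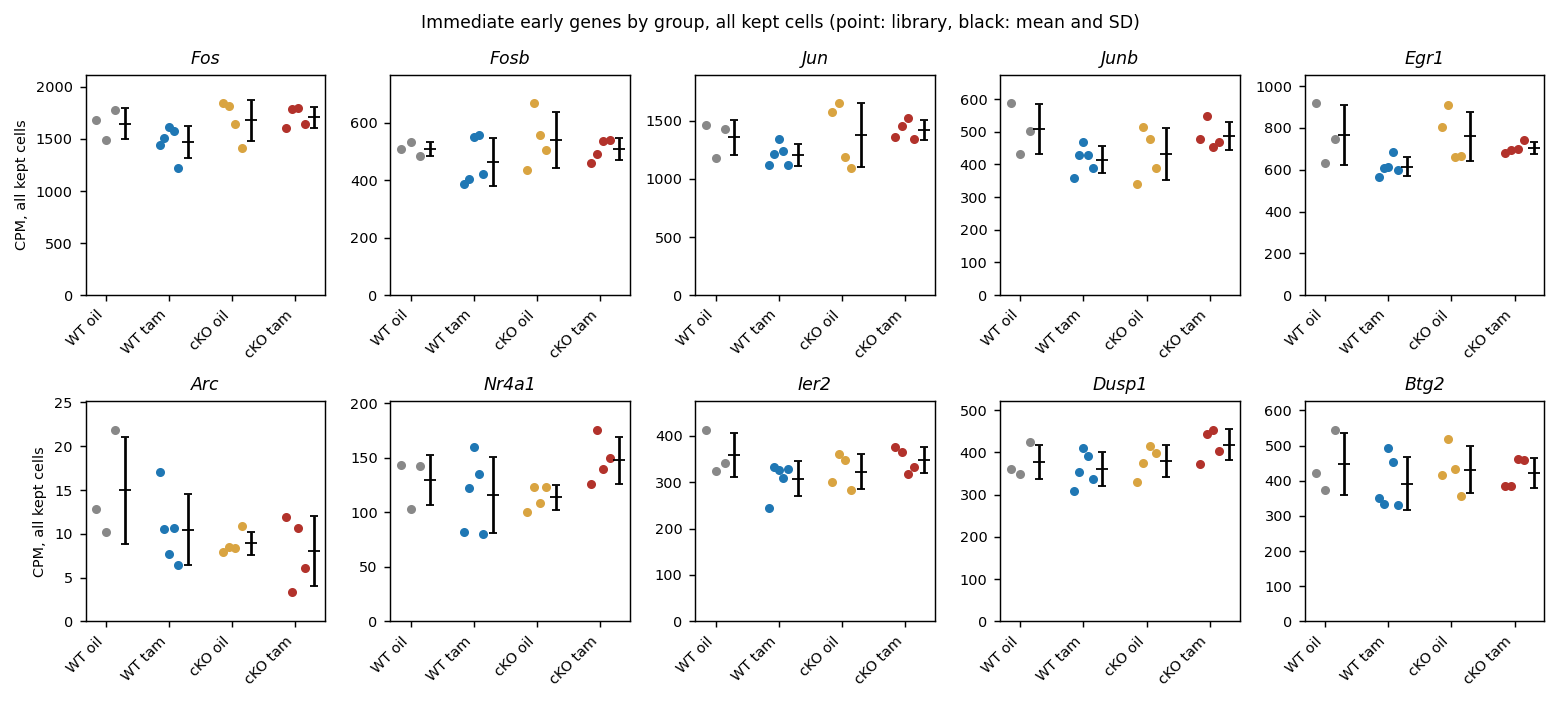
Level of each of the 10 genes over all kept cells, in CPM, by group, with 1 point per library (n = 3, 5, 4 and 4 for WT oil, WT tamoxifen, cKO oil and cKO tamoxifen) and the mean and SD in black. The groups overlap for the 10 genes apart from Jun between WT tamoxifen and cKO tamoxifen and Nr4a1 between cKO oil and cKO tamoxifen.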

How the data were processed

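Drop-seq libraries of 16 mice, 1 per mouse, were analysed. For each library the authors deposited a matrix of raw UMI counts, with genes in rows and barcodes in columns and no normalization; it also lists barcodes below their cell filter. Per the submitters' processing notes, STAR 2.6, Seurat 3.6.1 and the mm10 genome were used, and sequencing reads were not analysed here. The study's methods give 3.6.1 as the version of R and name another version of Seurat. Rows were matched by gene symbol, the groups were taken from the sample labels, and there were 3 to 5 libraries per group.

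Cells with more than 200 and under 4000 genes and under 15% mitochondrial UMIs were kept, which retained 48.9 to 76.8% of the UMIs of a library. Integration and clustering used Seurat 5.3.0 under R 4.3.3, 2000 variable genes and resolution 0.05, and for neurons again 500 variable genes and resolution 0.7, in both cases without the immediate early genes. A type name needed at least 3 detected markers. Scrublet, as run in scanpy 1.11.5, marked 476 cells (0.855%) as doublets, which were kept and removed in an alternative.

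Counts were summed per library and type, given as CPM of all UMIs of those cells, and tested with edgeR 4.0.16 (quasi-likelihood F-test, TMM, filterByExpr, Benjamini-Hochberg adjustment over all genes of a fit, threshold 0.05). Each type was set against all other cells, with the library as a block, using libraries with at least 10 cells of the type, or 3 neurons of a neuronal cluster. Groups were compared in a fit of all 4 groups without a block. Neighbouring types were compared with exact sign-flip permutation tests on log2(CPM + 10), and correlations across libraries with 100000 resamples. Alternatives were DESeq2 1.42.0, its size factors, no filter on low counts, other cell filters, no doublets, another resolution, immediate early genes kept in the clustering, a pseudocount of 1, leaving out each library, S10 with S11, or shared barcodes, and fours of library numbers as a block. The tests were also run on simulated data. Self-test values are not quoted.

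The 10 members are always named. Of each other list, at most 3 genes with the largest absolute fold change past the threshold were named per comparison, and for each member the 3 genes with the highest correlation over types and libraries. Pairs of finer clusters and single libraries were chosen after their values were seen. The members and lists were chosen with earlier results of these data known. Intervals cover counting error only, since the depth of a cell limits whether a gene is seen. Promoters came from RefSeq (GRCm38.p6), and those of *Egr1*, *Arc* and *Ier2* were not used here.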

Additional observations from a re-analysis of the deposited data

Results flagged for a closer look

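*Ier2* over all kept cells was low in 1 WT tamoxifen library. Library S3 had 243 CPM, and the other 4 libraries of the group had 308 to 332 CPM, so that its gap to the nearest, divided by the range of the group, was 0.729 against a critical value of 0.71. In all, 60 combinations of group and member in all cells or in neurons were examined in this way, and chance alone marks about 1 in 20. *Ier2* did not differ between groups by edgeR in any cell type.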

How the results depend on the processing

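Of 90 combinations of member and cell type, all kept their direction and side of the threshold with the DESeq2 test, DESeq2 size factors, no doublets, no shared barcodes, and without S10 and S11. Leaving out a library in turn changed 1 of 1440 values, *Arc* in neurons, which ran from −0.0067 to 0.19 on the log2 scale (0.06 over all libraries). *Arc* in neurons was also at −0.050 in cells with more than 500 genes and −0.041 with a mitochondrial share under 5%. That last filter left 0 members higher in oligodendrocytes (1 before), 0 lower in microglia (1 before) and 4 higher in ependymal cells (9 before), and *Nr4a1* in ependymal cells came to 0.0025 (−0.16 before). *Ier2* in polydendrocytes was at −8.65e-05 without the filter on low counts (0.09 before), and *Arc* in fibroblast-like cells at −0.87 with the immediate early genes kept in the clustering (2.13 before). *Jun* in mural cells lost its call in cells with more than 500 genes (0.17) and at a mitochondrial share under 5% (0.03). At resolution 0.5 *Ier2* in polydendrocytes gained a call (0.26). In the *Vip* cluster *Ier2* gained a call on leaving out any of 9 libraries. The share of all cells with *Fos* was 35.5%, 33.3% when thinned to 500 UMIs and 24.3% at 300. For the relation of neurons to other cells across libraries, 0 members passed without S10 and S11 (2 before). The causes were not tested.

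No member was called between groups under any alternative. No paired analysis was possible because the replicate number is the library number, no 2 groups share one, and the labels give no day. Fours of successive library numbers were used as a block in place of the day and gave 0 calls, with and without the shared barcodes; whether they are the days is not known. A median depth of 563 to 819 UMIs per cell limits what can be said of *Arc* and of small neuronal clusters.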
